A study of Mus musculus with 8 samples.

Results

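The genes of cholesterol synthesis, uptake and efflux were compared between 2 mouse lung lines, LLC1 and MLE12. The 28 genes were chosen by name, as enzymes, regulators and carriers of the pathway, and each matched 1 row of a deposited count table of 43346 genes. LLC1 cells derive from the Lewis carcinoma, a tumour that arose in the lung of a C57BL mouse. MLE12 cells are of lung epithelial origin and were established from transgenic mice. In those mice a surfactant protein C gene promoter, active in alveolar epithelium, drove SV40 large T antigen. Poly-A RNA of 4 libraries of each line, 8 in all, was sequenced. The cells received no reagent and were harvested near 80% confluence. The labels call the medium appropriate and do not name it, so a difference between lines and a difference between media or sera cannot be told apart. They also give neither passage nor whether each library had a culture of its own, so the p-values rest on a spread among samples that may be technical.

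Cholesterol is made from acetyl-CoA. The mevalonate arm builds isoprenoid units, squalene is formed and closed into lanosterol, and a chain of enzymes of the endoplasmic reticulum then trims lanosterol to cholesterol. Most of these enzymes are transcribed under SREBP-2, a membrane-bound factor that Scap escorts to the Golgi when sterols are low and that Insig proteins hold back when sterols are high. Surplus cholesterol is stored as esters or exported by ABC transporters, whose genes are switched on by the oxysterol-sensing LXR receptors. In the lung, alveolar type II cells use cholesterol as a component of surfactant.

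Library totals ran from 46840648 to 55285307 counts in LLC1 and from 48643667 to 76722481 counts in MLE12. A count of 0 allows 3 counts, or 0.0391 to 0.0640 CPM depending on the library, CPM being a gene's count scaled to a common library size by its total, for counting error only. Levels below are CPM after TMM scaling, in the order of replicates 1 to 4, or means ± SD (n = 4 per line). Log2 fold changes, given ± SE, are of LLC1 over MLE12. Unless another tool is named, every adjusted p-value below comes from the quasi-likelihood test of edgeR, with Benjamini-Hochberg adjustment over all genes tested. The line labels were checked with alveolar epithelial markers. Nkx2-1 averaged 0.664 ± 0.109 CPM in LLC1 cells, against 147 ± 6.39 CPM in MLE12 cells, and the 5 markers summed to 1.62 to 1.78 CPM in LLC1 cells, against 348 to 369 CPM in MLE12. In MLE12 this sum was mainly Nkx2-1 and Cdh1 (154 CPM), with the surfactant protein genes Sftpb at 32.4 and Sftpc at 23.6 CPM and Epcam at 3.36 CPM. All 5 were lower in LLC1. Of the macrophage markers, Ptprc had 0 counts over the LLC1 libraries and 2 over the MLE12 libraries, and Itgam had 2 in LLC1 and 5 in MLE12. The 7 macrophage markers analysed summed to 30.3 to 33.1 CPM in LLC1 cells, against 19.7 to 22.4 CPM in MLE12, nearly all from Cd68, Csf1r and Cd14. The 6 endothelial markers summed to 0.571 to 1.12 CPM in LLC1 cells, against 3.44 to 4.07 CPM in MLE12, and Emcn was at 0 in all libraries. Most of the MLE12 sum came from Tek, which averaged 2.95 CPM in MLE12 cells and 0.0563 CPM in LLC1. Pecam1 and Vwf did not pass the test between the lines.

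By size, the widest differences between the lines lay in 3 of the 8 synthesis genes after lanosterol and in 5 genes of transport, storage, efflux and LXR. LLC1 had more of the esterifying enzyme gene Soat1 (17.8-fold) and of the lysosomal exporter gene Npc1 (3.31-fold), and more of the efflux transporter gene Abcg1 (14.9-fold, from few counts). It had less of the efflux transporter gene Abca1 (71.3-fold), of the sterol-sensing receptor gene Nr1h3 (6.83-fold) and of the late synthesis genes Ebp (4.55-fold), Hsd17b7 (3.97-fold) and Dhcr7 (2.40-fold). All 28 genes passed the filter on low counts. Of them 11 were higher in LLC1, 16 were lower and 1 did not pass the test, where 81.6% of the 18546 genes tested passed (40.7% higher and 40.9% lower). The count of calls therefore lies near the background, and the genes are described below by the size of their differences. Tested against a minimum fold of 2 with edgeR's glmTreat, 3 of the 28 were higher and 5 lower, where 33.7% of all genes tested passed (16.7% and 16.9%). None of the 8 lay among the 10 genes of the mevalonate and squalene steps; 3 lay after lanosterol and 5 among the transport, storage, efflux and LXR genes. The median log2 fold change of the 28 was -0.20, beside 0.02 over all genes tested, and 14 of the 28 differed by less than 1.5-fold, as did 42.0% of all genes tested. With near-identical gene copies summed, 12 were higher and 15 lower, with a median of -0.14. All LLC1 libraries lay above all MLE12 libraries for 10 of the 28 genes and below them for 14, where 76.3% of all genes tested did not overlap (37.7% above and 38.7% below).

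**Figure D1:**
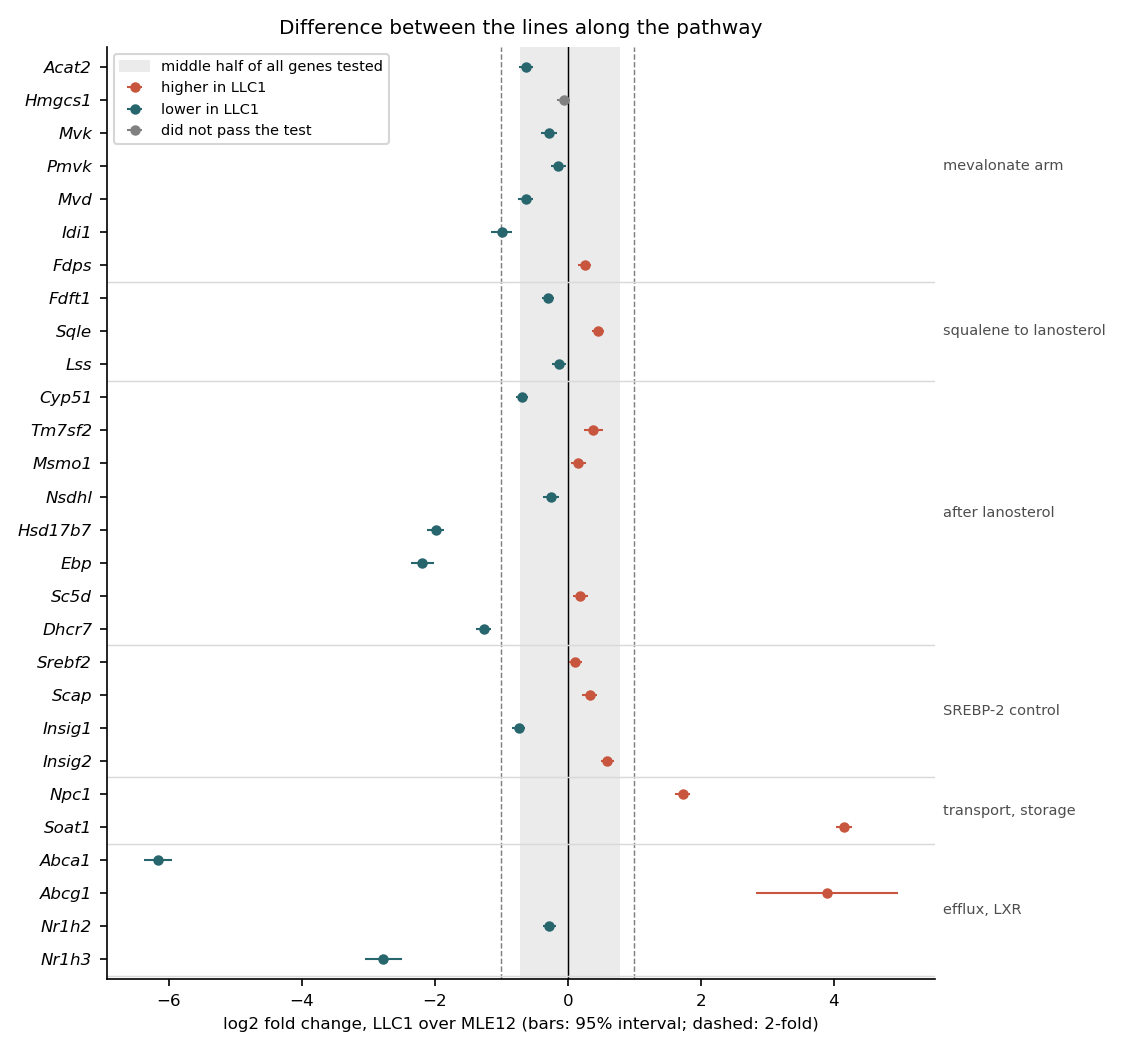
Log2 fold change of LLC1 over MLE12 for the 28 genes in pathway order, with 95% intervals from edgeR. The grey band holds the middle 50% of all genes tested and dashed lines mark 2-fold; the points of the mevalonate and squalene genes sit within the dashed lines, while Soat1 at 4.16 and Abca1 at -6.16 lie farthest out on either side.

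In the mevalonate arm, 5 of 7 genes were lower in LLC1, 1 was higher and 1 did not pass, with a median log2 fold change of -0.28. These figures take Acat2 as counted; with near-identical copies summed, which reverses Acat2, 4 were lower and 2 higher, with a median of -0.14. Hmgcs1, which condenses acetyl-CoA into HMG-CoA, had 104, 106, 100.3 and 104 CPM in the LLC1 libraries, against 104, 105, 105 and 119 CPM in the MLE12 libraries. The lines overlapped, with MLE12 replicate 4 above the other 7 libraries, and the log2 fold change of -0.06 ± 0.05 (95% interval -0.16 to 0.04, adjusted p = 0.226) did not pass; it passed with library totals alone (adjusted p = 0.007). The Hmgcs1 promoter is shown because it holds the only match, among the 23 genes whose promoter was searched, to the core of the sterol response element bound by SREBP factors (TCACNCCAC). Fdps, Fdft1, Sqle, Npc1 and Abcg1 were not searched. Capitals mark that core, the CCAAT box (CCAAT), the GC box (GGGCGG), the E-box (CACGTG) and an LXR direct repeat (GGTNA, then any 5 bases, then GGTNA again), on either strand, here and in the promoters given further on. These windows, from RefSeq on build GRCm38.p6, run from 250 bases before to 50 after the annotated start and are written 5′ to 3′ along the gene.
Hmgcs1 promoter (chr13:119690101-119690400, + strand): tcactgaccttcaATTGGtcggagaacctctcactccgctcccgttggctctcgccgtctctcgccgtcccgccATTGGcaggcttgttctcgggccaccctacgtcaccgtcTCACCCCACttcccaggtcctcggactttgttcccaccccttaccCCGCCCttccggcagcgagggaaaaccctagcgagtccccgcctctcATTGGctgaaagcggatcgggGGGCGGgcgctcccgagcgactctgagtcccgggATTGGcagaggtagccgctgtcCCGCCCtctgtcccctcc

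Idi1, the isomerase that readies isopentenyl units for chain building, showed the largest difference of the arm. It had 52.1, 45.3, 43.3 and 41.5 CPM in the LLC1 libraries, against 87.3, 85.0, 88.2 and 103 CPM in the MLE12 libraries, and every LLC1 library lay below every MLE12 library. The log2 fold change was -0.995 ± 0.07 (adjusted p = 1.3e-09), yet against a minimum of 2-fold it did not pass (adjusted p = 0.663). Mvd, the decarboxylase that makes isopentenyl diphosphate, averaged 26.1 ± 1.66 CPM in LLC1 cells, against 40.5 ± 1.23 CPM in MLE12 cells (-0.63 ± 0.05, adjusted p = 2.4e-09), also without overlap. Mevalonate kinase, Mvk, averaged 20.8 ± 0.834 CPM in LLC1 cells, against 25.3 ± 1.42 CPM in MLE12 cells (-0.28 ± 0.06, adjusted p = 2.1e-04). Fdps, farnesyl diphosphate synthase, was the member of the arm that was higher in LLC1, with 93.3, 94.9, 97.1 and 89.9 CPM in the LLC1 libraries, against 78.0, 75.1, 83.3 and 78.2 CPM in the MLE12 libraries (0.25 ± 0.04, adjusted p = 3.4e-05). The phosphomevalonate kinase gene Pmvk averaged 27.0 ± 1.62 CPM in LLC1 cells, against 29.8 ± 1.08 CPM in MLE12 cells, a small and unsteady difference of -0.14 ± 0.06 (adjusted p = 0.0281). Its call ended without LLC1 replicate 1 (0.1), 2 (0.0815) or 4 (0.138), without MLE12 replicate 3 (0.0651), with upper-quartile factors (0.174) and with the stricter filter (0.136), all adjusted p.

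Acat2, the cytosolic thiolase that opens the pathway, had 41.8, 41.0, 40.1 and 36.7 CPM in the LLC1 libraries, against 60.8, 64.0, 58.9 and 63.6 CPM in the MLE12 libraries (-0.63 ± 0.05, adjusted p = 7.9e-10). Its direction is uncertain, because the neighbouring Acat3 matches its coding sequence over 1179 bases at 98.1% identity. Acat3 had 23500 counts over the LLC1 libraries and 21151 over the MLE12 libraries, and Acat2 itself 7871 in LLC1 and 17355 in MLE12. With the counts of both summed, the level was 159 ± 8.88 CPM in LLC1 cells, against 137 ± 2.25 CPM in MLE12, and the log2 fold change turned to 0.22 ± 0.04 (adjusted p = 1.7e-04). Exons of Acat3 in turn share 571 bases with Tcp1 on the opposite strand, which had 131420 counts in LLC1 and 131879 in MLE12, so the sum may hold Tcp1 reads as well. Fdps, Fdft1 and Idi1 have processed pseudogene copies of over 95% identity. Summing their counts gave log2 fold changes of 0.27 for Fdps, -0.30 for Fdft1 and -1.004 for Idi1. In the GENCODE M21 annotation, Fdps also shares 1124 of its 4208 exon bases with Gm43738 on the same strand, a gene not analysed here. The deposited length of Fdps is 1241 bases, so its counted exons differ from those of that annotation.

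**Figure D2:**
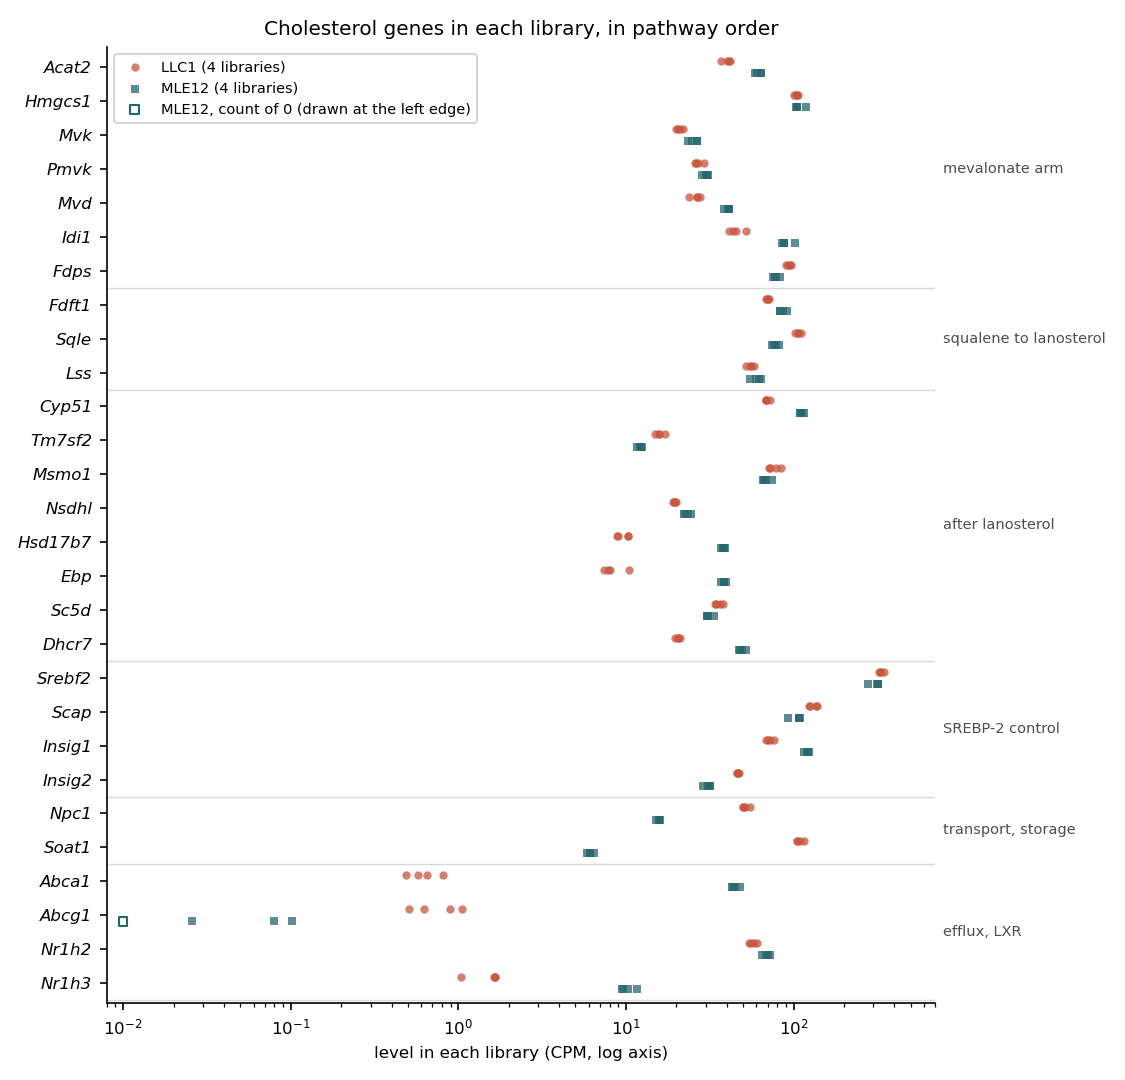
Level of each of the 28 genes in each library, in CPM on a log axis, in pathway order from the top; circles are LLC1 libraries and squares MLE12 libraries. Most synthesis genes lie between 10 and 100 CPM in both lines with little spread, and the lines part widely at Soat1, Abca1, Abcg1 and Nr1h3; the MLE12 library without an Abcg1 count is drawn at the left edge.

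The 3 genes from farnesyl diphosphate to lanosterol all differed by less than 1.5-fold. Sqle, squalene epoxidase, which is a slow and much regulated step of the later pathway, was higher in LLC1. It had 107, 103, 107 and 111 CPM in the LLC1 libraries, against 76.7, 78.3, 82.3 and 74.8 CPM in the MLE12 libraries, without overlap (0.45 ± 0.04, adjusted p = 1.4e-08). Fdft1, squalene synthase, was lower in LLC1, with 71.8, 68.6, 70.3 and 69.2 CPM in the LLC1 libraries, against 83.0, 82.9, 86.9 and 91.0 CPM in the MLE12 libraries (-0.30 ± 0.04, adjusted p = 4.8e-06). Its exons share 774 bases with those of Ctsb on the opposite strand in GENCODE M21, and without a stated counting strand reads of the overlap cannot be told apart. Lss, lanosterol synthase, averaged 55.3 ± 2.49 CPM in LLC1 cells, against 60.6 ± 3.94 CPM in MLE12 cells (-0.13 ± 0.05, adjusted p = 0.026), with overlapping libraries. That call ended without LLC1 replicate 1 (0.153) or 2 (0.0622) or without MLE12 replicate 1 (0.0522) or 2 (0.0708), and in 3 other settings. Summed over the 3 genes, the level was 226 to 238 CPM in LLC1 cells, against 221 to 229 CPM in MLE12, ranges that overlap.

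After lanosterol, 3 of 8 genes were higher in LLC1 and 5 lower, and all 3 that passed the test for 2-fold were lower in LLC1. Ebp, the isomerase that shifts a bond within the sterol ring, differed most. It (ENSMUSG00000031168, chrX:8185329-8193512, mm10) had 7.79, 10.4, 8.08 and 7.38 CPM in the LLC1 libraries, against 36.9, 38.2, 39.5 and 38.7 CPM in the MLE12 libraries. Every LLC1 library lay below every MLE12 library, LLC1 replicate 2 being the highest of its line, and the log2 fold change was -2.18 ± 0.08 (adjusted p = 1.7e-14). Hsd17b7 (ENSMUSG00000026675, chr1:169949535-169969241), the ketosteroid reductase that completes removal of the methyl groups, had 10.3, 10.3, 8.99 and 8.83 CPM in the LLC1 libraries, against 38.4, 36.9, 37.9 and 39.0 CPM in the MLE12 libraries (-1.99 ± 0.06, adjusted p = 4.5e-16), again far apart. Dhcr7, which carries out the last reduction to cholesterol, had 21.1, 20.5, 20.5 and 19.6 CPM in the LLC1 libraries, against 52.1, 47.2, 49.2 and 47.8 CPM in the MLE12 libraries (-1.27 ± 0.05, adjusted p = 2.1e-14). These 3 genes passed the test against a minimum of 2-fold, with adjusted p = 2.1e-11 for Ebp, 2.9e-12 for Hsd17b7 and 2.0e-05 for Dhcr7. The promoters of the pair with the largest differences among the synthesis genes are given beside that of Hmgcs1.
Ebp promoter (chrX:8193463-8193762, - strand): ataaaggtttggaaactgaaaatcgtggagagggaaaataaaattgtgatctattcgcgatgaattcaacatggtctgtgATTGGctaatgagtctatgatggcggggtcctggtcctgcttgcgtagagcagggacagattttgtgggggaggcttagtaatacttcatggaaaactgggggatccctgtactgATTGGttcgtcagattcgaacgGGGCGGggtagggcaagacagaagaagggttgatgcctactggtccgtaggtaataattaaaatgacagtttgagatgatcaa
Hsd17b7 promoter (chr1:169969156-169969455, - strand): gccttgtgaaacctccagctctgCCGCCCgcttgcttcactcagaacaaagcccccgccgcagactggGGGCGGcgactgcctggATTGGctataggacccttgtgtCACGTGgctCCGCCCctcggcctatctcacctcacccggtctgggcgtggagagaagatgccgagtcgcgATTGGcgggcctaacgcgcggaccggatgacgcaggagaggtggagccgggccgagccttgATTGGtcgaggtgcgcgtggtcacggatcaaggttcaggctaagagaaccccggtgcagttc
The Ebp window holds 2 CCAAT boxes, that of Hsd17b7 3 and that of Hmgcs1 4.

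Cyp51, which removes the first methyl group from lanosterol, was also lower in LLC1, with 72.4, 68.2, 68.6 and 68.6 CPM in the LLC1 libraries, against 109, 109, 113 and 116 CPM in the MLE12 libraries (-0.68 ± 0.04, adjusted p = 1.4e-11). Nsdhl, the decarboxylating dehydrogenase of the demethylation complex, averaged 19.4 ± 0.389 CPM in LLC1 cells, against 23.2 ± 0.999 CPM in MLE12 cells (-0.25 ± 0.06, adjusted p = 4.3e-04). The other 3 enzymes were slightly higher in LLC1. Tm7sf2, a reductase acting on the product of Cyp51, averaged 15.9 ± 0.862 CPM in LLC1 cells, against 12.1 ± 0.372 CPM in MLE12 cells (0.39 ± 0.07, adjusted p = 3.0e-05), and its exons overlap those of Vps51 on the same strand. The sterol desaturase gene Sc5d averaged 35.7 ± 1.65 CPM in LLC1 cells, against 31.3 ± 1.39 CPM in MLE12 cells (0.19 ± 0.05, adjusted p = 0.00314), a call that ended with library totals alone (adjusted p = 0.156). Msmo1, the methylsterol oxidase, had overlapping libraries, with 84.4, 78.1, 71.5 and 72.3 CPM in the LLC1 libraries, against 66.4, 68.2, 65.3 and 74.2 CPM in the MLE12 libraries (0.16 ± 0.06, adjusted p = 0.0132). The Msmo1 call ended without MLE12 replicate 1 (0.0517), without MLE12 replicate 3 (0.0676) and when scaled to library totals (0.316). Msmo1, Nsdhl and Hsd17b7 act in turn on the same methyl groups, and of them Nsdhl and Hsd17b7 were lower in LLC1 in every setting run.

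Over all 18 synthesis enzymes, 5 were higher in LLC1, 12 lower and 1 did not pass, with a median log2 fold change of -0.27. With near-identical copies summed, 6 were higher and 11 lower, with a median of -0.20. The summed level of the 18 genes, without copies, was 844 ± 13.1 CPM for LLC1, against 1032 ± 22.8 CPM in MLE12, and the ranges, 832 to 863 CPM in LLC1 cells, against 1014 to 1064 CPM in MLE12, did not overlap. Levels of different genes can be set side by side only per length. In CPM per kb of the deposited gene length, Fdps was the highest enzyme gene in both lines (75.6 in LLC1 and 63.4 in MLE12), followed by Hmgcs1 (32.0 in LLC1 and 33.5 in MLE12) and Fdft1 (24.5 in LLC1 and 30.0 in MLE12). The lowest in LLC1 were Hsd17b7 at 1.88 and Ebp at 3.64 CPM per kb, whereas the lowest in MLE12 were Tm7sf2 at 3.49 and Lss at 5.62 CPM per kb. Ebp stood at the 46.4 percentile of all genes tested in LLC1 and at the 77.6 percentile in MLE12. This order depends on the length used. Per kb of the longest coding transcript in GENCODE M21, an alternative added after seeing the data, Fdps was still highest among the enzymes (67.9 in LLC1 and 56.9 in MLE12), but Msmo1 (37.5 in LLC1 and 33.5 in MLE12) stood above Hmgcs1 (29.9 in LLC1 and 31.2 in MLE12) in both lines, and Sqle (38.7 in LLC1 and 28.3 in MLE12) did so in LLC1. Fdft1 then ranked 6 of 18 in LLC1 and 9 of 18 in MLE12. Hsd17b7 and Ebp remained the lowest pair in LLC1, while Sc5d and Tm7sf2 were lowest in MLE12. The longest coding transcript exceeds the deposited length for Sc5d (4787 against 2328 bases), Fdft1 (3698 against 2860), Hmgcs1 (3464 against 3233) and Fdps (1382 against 1241). Some of its bases were then not counted, so these genes may stand too low in this second order. Small differences also depended on scaling: with library totals alone the log2 fold changes of the 28 genes shifted by -0.10 to -0.09, which put Fdps at 0.15, Msmo1 at 0.06, Sc5d at 0.09, Lss at -0.23 and Pmvk at -0.24. With upper-quartile factors Lss stood at -0.07 and Pmvk at -0.08.

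Among the 4 genes that control SREBP-2, the sterol sensors split. Insig1, itself a target of SREBP-2, was lower in LLC1, and its paralog Insig2, which is not driven by SREBP-2 in the same way, was higher. Insig1 (ENSMUSG00000045294, chr5:28071363-28078662) had 76.8, 68.9, 72.5 and 70.2 CPM in the LLC1 libraries, against 122, 120.3, 116 and 123 CPM in the MLE12 libraries (-0.74 ± 0.04, adjusted p = 9.7e-12). Insig2 (ENSMUSG00000003721, chr1:121304353-121332589) had 47.5, 45.9, 46.8 and 45.8 CPM in the LLC1 libraries, against 29.0, 30.9, 31.6 and 31.7 CPM in the MLE12 libraries (0.59 ± 0.05, adjusted p = 9.0e-10). In neither gene did the libraries of the lines overlap. Within each library, the ratio of Insig1 to Insig2 in counts per kb was 2.08, 1.93, 2.00 and 1.97 in LLC1 and 5.40, 5.005, 4.72 and 5.004 in MLE12. On the log2 scale the ratio differed by -1.33 (two-sided exact permutation test, p = 0.0286, the same after adjustment over 3 ratios), which is the smallest p that 4 against 4 libraries allow. This p was fixed by the separation of both genes in opposite directions, and it adds no support to that separation. By these ratios, Insig1 was the more abundant of the pair in every library of both lines, by a smaller margin in LLC1.
Insig1 promoter (chr5:28071162-28071461, + strand): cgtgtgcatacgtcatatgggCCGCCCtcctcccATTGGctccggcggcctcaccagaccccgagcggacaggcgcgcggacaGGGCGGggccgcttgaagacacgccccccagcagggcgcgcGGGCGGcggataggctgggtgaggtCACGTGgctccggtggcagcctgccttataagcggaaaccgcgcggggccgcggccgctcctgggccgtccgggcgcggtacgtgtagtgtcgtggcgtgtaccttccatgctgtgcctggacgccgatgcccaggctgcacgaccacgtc
The Insig1 window is given because the gene is a known SREBP-2 target; it holds 1 CCAAT box, 3 GC boxes and 1 E-box, and no match to the sterol response core in these 300 bases.

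Srebf2, which encodes SREBP-2, stood next to Fdps as the highest of the 28 genes per deposited length in both lines, at 66.9 CPM per kb in LLC1 and 61.7 CPM per kb in MLE12. It had 328, 324, 333 and 348 CPM in the LLC1 libraries, against 319, 320.0, 316 and 277 CPM in the MLE12 libraries, with MLE12 replicate 4 lowest of all. The log2 fold change was only 0.12 ± 0.05 (adjusted p = 0.0355), and the call ended without LLC1 replicate 3 (adjusted p = 0.061) or 4 (0.0929), without MLE12 replicate 3 (0.0609) or 4 (0.162), and in 5 other settings, among them DESeq2 (0.0546). With library totals alone it was 0.02 and with upper-quartile factors 0.17. Without MLE12 replicate 4 the log2 fold change was 0.06. Scap, the escort of SREBP-2, had 125, 124, 136 and 138 CPM in the LLC1 libraries, against 108, 109, 108 and 92.4 CPM in the MLE12 libraries (0.33 ± 0.05, adjusted p = 2.2e-05). Its exons overlap those of an unclassified transcript, 5830462I19Rik, on the opposite strand. No protein was measured, and the processed form of SREBP-2 that enters the nucleus is not visible in these counts.

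The transport and storage genes were both higher in LLC1 and both passed the test for 2-fold. Soat1 (ENSMUSG00000026600, chr1:156424525-156474331), the enzyme of the endoplasmic reticulum that esterifies cholesterol for lipid droplets, had 115, 109.6, 104 and 105 CPM in the LLC1 libraries, against 6.09, 5.82, 6.08 and 6.42 CPM in the MLE12 libraries. The groups were far apart, and the log2 fold change of 4.16 ± 0.06 (95% interval 4.04 to 4.27, adjusted p = 6.7e-22) ranged from 4.05 to 4.21 over all settings. Per length it stood at 11.1 CPM per kb in LLC1, the 69.5 percentile of genes tested, and 0.623 CPM per kb in MLE12, the 23.7 percentile. The promoter of Soat1, the gene with the largest difference toward LLC1, holds 1 CCAAT box and 1 GC box.
Soat1 promoter (chr1:156474279-156474578, - strand): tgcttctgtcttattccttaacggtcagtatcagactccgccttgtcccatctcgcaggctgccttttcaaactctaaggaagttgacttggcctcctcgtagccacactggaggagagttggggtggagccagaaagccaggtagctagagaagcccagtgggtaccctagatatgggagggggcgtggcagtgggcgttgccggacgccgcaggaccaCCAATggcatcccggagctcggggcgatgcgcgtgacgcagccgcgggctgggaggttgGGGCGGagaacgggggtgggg

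Npc1 (ENSMUSG00000024413, chr18:12189693-12236400), the membrane protein that releases cholesterol taken up with lipoproteins from lysosomes, had 50.3, 51.4, 49.8 and 55.2 CPM in the LLC1 libraries, against 15.8, 15.7, 15.1 and 15.98 CPM in the MLE12 libraries. Its log2 fold change was 1.73 ± 0.05 (adjusted p = 2.0e-16). The libraries of the lines were far apart. Exons of Npc1 overlap those of Rmc1 on the opposite strand over 511 bases.

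The efflux genes went in opposite directions. Abca1 (ENSMUSG00000015243, chr4:53030787-53159895), which loads cholesterol onto lipid-poor apolipoprotein A-I, had 0.578, 0.486, 0.806 and 0.647 CPM in the LLC1 libraries, against 43.5, 45.1, 47.9 and 43.0 CPM in the MLE12 libraries. The LLC1 libraries held 25, 26, 39 and 34 counts and the MLE12 libraries 3366, 3399, 3774 and 2148. The log2 fold change of -6.16 ± 0.10 (95% interval -6.36 to -5.95, adjusted p = 1.1e-20) was the largest of the 28 genes in size. Abcg1, which passes cholesterol on to mature lipoprotein particles, was low in both lines and lower in MLE12. It had 22, 48, 30 and 55 counts in the LLC1 libraries and 2, 0, 8 and 4 counts in the MLE12 libraries, or means of 0.768 ± 0.247 CPM in LLC1 cells and 0.0518 ± 0.0470 CPM in MLE12. The log2 fold change of 3.90 ± 0.50 (adjusted p = 8.9e-07) has a wide 95% interval, 2.84 to 4.96, and was 4.57 without MLE12 replicate 3, the library with the most of these few counts. With at least 1 CPM required in 4 libraries, Abcg1 was not tested.

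Within a library, the log2 ratio of Abca1 to Abcg1 per kb was -1.60 ± 0.62 in LLC1 and 8.86 ± 1.84 in MLE12 (SD, n = 4 each), computed with 0.5 added to each count because MLE12 replicate 2 has no Abcg1 count. Per kb of the deposited lengths, Abcg1 was thus the more abundant of the pair in every LLC1 library and Abca1 in every MLE12 library. The order in LLC1 depends on those lengths, 10363 bases for Abca1 and 4066 for Abcg1. Before scaling by length, Abca1 had more counts than Abcg1 in LLC1 replicates 1 (25 and 22) and 3 (39 and 30). The log2 ratio differed between the lines by -10.46 (two-sided exact permutation test, p = 0.0286, the smallest possible), and by -9.81 without MLE12 replicate 2. That p was also fixed, since the lines did not overlap in either gene and the genes went in opposite directions. The Abca1 promoter is given because it holds the only match among the 23 genes searched to the LXR direct repeat, 67 bases before the start on the reverse strand, a pattern present in 0.718% of all promoter windows. The Abcg1 promoter was not searched.
Abca1 promoter (chr4:53159846-53160145, - strand): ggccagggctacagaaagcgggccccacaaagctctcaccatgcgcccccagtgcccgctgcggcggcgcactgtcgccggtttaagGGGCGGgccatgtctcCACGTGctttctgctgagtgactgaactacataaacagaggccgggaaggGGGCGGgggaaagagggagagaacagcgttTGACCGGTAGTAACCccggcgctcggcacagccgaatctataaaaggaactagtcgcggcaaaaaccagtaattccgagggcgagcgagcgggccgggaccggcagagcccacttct

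Both LXR receptor genes were lower in LLC1, by very different amounts. Nr1h3, which encodes LXR alpha, had 1.66, 1.63, 1.03 and 1.66 CPM in the LLC1 libraries, against 11.6, 9.56, 10.2 and 9.44 CPM in the MLE12 libraries. The LLC1 libraries held 72, 87, 50 and 87 counts, replicate 3 being lowest, and none came near the MLE12 level (-2.77 ± 0.13, adjusted p = 3.0e-13). Nr1h2, which encodes the widely expressed LXR beta, averaged 57.2 ± 2.86 CPM in LLC1 cells, against 69.1 ± 3.005 CPM in MLE12 cells (-0.27 ± 0.05, adjusted p = 3.5e-05), also without overlap. Nr1h2 was the more abundant receptor in all 8 libraries. The ratio of Nr1h3 to Nr1h2 per kb was 0.0411, 0.0392, 0.0236 and 0.0366 in LLC1 and 0.215, 0.183, 0.199 and 0.194 in MLE12, a difference of -2.52 on the log2 scale (two-sided exact permutation test, p = 0.0286).

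**Figure D3:**
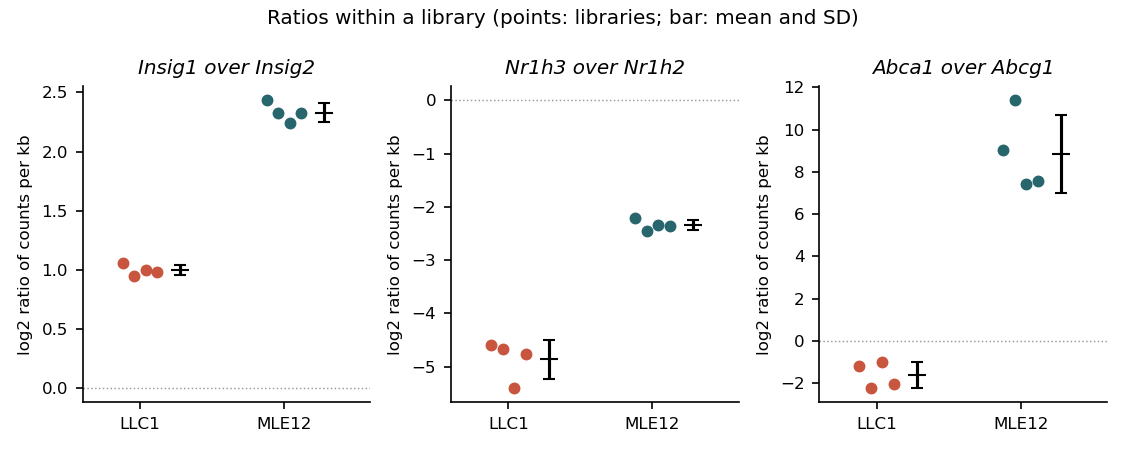
Log2 ratio of counts per kb within each library for the Insig, LXR and ABC transporter pairs, LLC1 left of MLE12; points are libraries, bars the mean and SD. The lines do not overlap in any panel. In the Abca1 to Abcg1 panel they lie on either side of 0, the line of equal levels per kb of the deposited lengths.

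Promoter windows were analysed for 23 of the 28 genes, 15 of them synthesis enzymes, with 30 windows in all since some genes have several starts. The 5 genes not analysed here were the synthesis genes Fdps, Fdft1 and Sqle and the carriers Npc1, which was left out, and Abcg1. A CCAAT box, the element of the factor NF-Y that acts beside SREBP, was found in 14 of 18 windows of synthesis enzymes, in 4 of 12 windows of the other genes and in 37.4% of 32851 windows of all genes. By gene, 14 of 15 synthesis enzymes had one in at least 1 window, the exception being Acat2. GC boxes were found in 15 of 18 windows of synthesis enzymes, 8 of 12 of the other genes and 35.7% of all windows. E-boxes were in 7 of 30 windows, against 7.15% of all windows. By gene they were in 6 of 23, since Scap had a match in 2 windows. The sterol response core was in 1 window, that of Hmgcs1, against 1.24% of all windows. Nr1h2 and Nr1h3 held no match to any of these motifs. The letters describe the windows only, and binding was not measured.

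**Figure D4:**
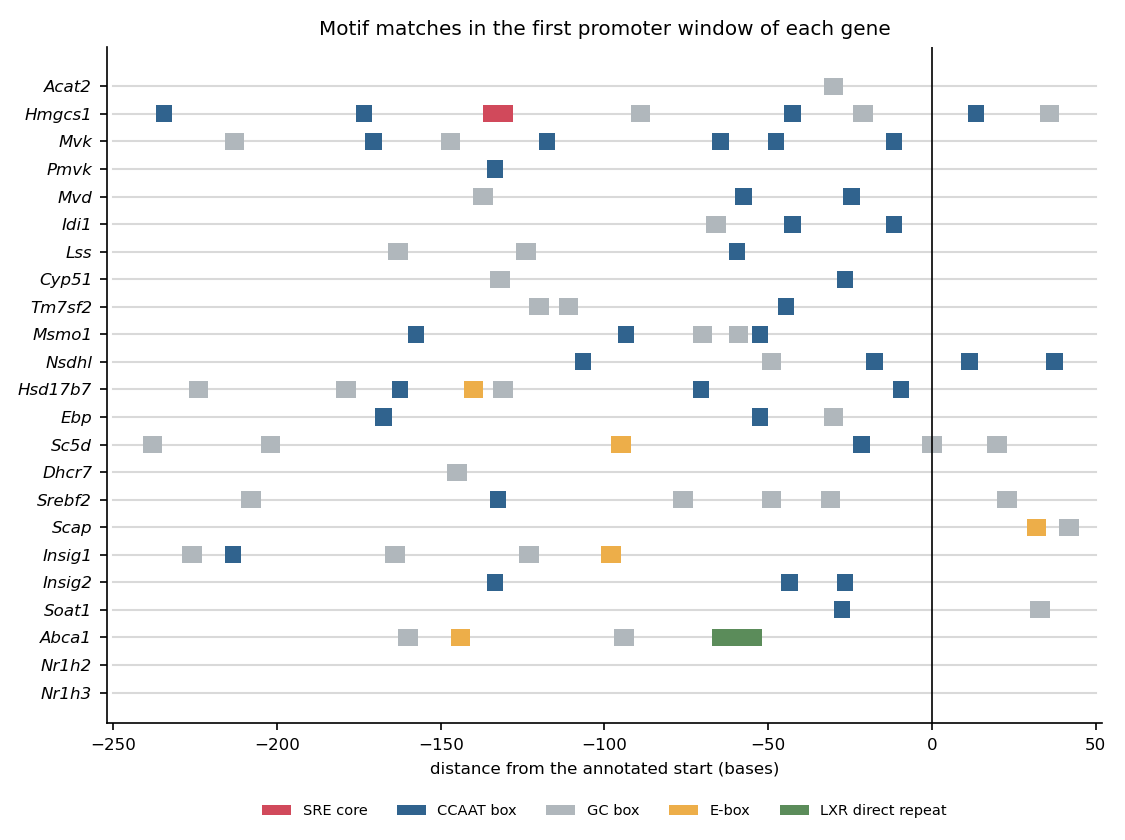
Positions of motif matches in the first promoter window of each of 23 genes, in bases from the annotated start (vertical line), with genes in pathway order from the top. CCAAT boxes recur in the windows of synthesis enzymes, while the sterol response core appears in Hmgcs1 and the LXR direct repeat in Abca1.

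The surroundings of the pathway were described with 51 further genes in 6 lists. Of the 50 tested, 21 were higher in LLC1, 22 lower and 7 did not pass, and 6 and 5 passed the test for 2-fold, where, as above, 40.7% and 40.9% of all genes passed and 16.7% and 16.9% passed for 2-fold. All 4 genes of acetyl-CoA supply were lower in LLC1. Acly, which makes cytosolic acetyl-CoA from citrate, averaged 167 ± 12.5 CPM in LLC1 cells, against 409 ± 22.1 CPM in MLE12 cells (-1.29 ± 0.05), and the mitochondrial thiolase gene Acat1 97.7 ± 2.92 CPM in LLC1 cells, against 177 ± 9.32 CPM in MLE12 cells (-0.86 ± 0.05). Of 10 genes of the isoprenoid branches, 5 were higher and 4 lower. Coq2, which attaches the side chain of ubiquinone, averaged 51.1 ± 2.12 CPM in LLC1 cells, against 14.2 ± 1.102 CPM in MLE12 cells (1.84 ± 0.06). The 2 subunit genes of protein farnesyltransferase parted, Fntb being higher in LLC1 (0.64 ± 0.05) and Fnta lower (-1.48 ± 0.04); Dhdds, of dolichol synthesis, was lower (-0.44 ± 0.05).

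Of 6 helper genes of sterol synthesis, 2 were higher and 3 lower. The electron donor genes Por, the reductase serving Cyp51 and Sqle (0.88 ± 0.06), and Cyb5r3 (0.61 ± 0.04) were higher in LLC1, and Cyb5b (-0.82 ± 0.04) and 0610007P14Rik (-0.23 ± 0.06) were lower. Genes that process SREBP or turn over sterol-regulated proteins counted 3 higher, 3 lower and 3 not passing. Erlin2, a membrane protein of the endoplasmic reticulum that takes part in such turnover, averaged 61.3 ± 0.972 CPM in LLC1 cells, against 117 ± 3.08 CPM in MLE12 cells (-0.93 ± 0.04), while Paqr3 (0.85 ± 0.09) and the ligase gene Rnf139 (0.40 ± 0.05) were higher. The site-1 protease gene Mbtps1 averaged 236 ± 14.5 CPM in LLC1 cells, against 412 ± 17.7 CPM in MLE12 cells (-0.81 ± 0.05).

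Sterol transport and ester genes held the widest differences among the lists. Gramd1b, an Aster protein that carries plasma membrane cholesterol to the endoplasmic reticulum, averaged 43.8 ± 1.37 CPM in LLC1 cells, against 0.530 ± 0.177 CPM in MLE12 cells (6.38 ± 0.12, adjusted p = 6.7e-19). Its paralog Gramd1c, chosen after its values were seen, was the other way round at 0.547 ± 0.133 CPM in LLC1 cells, against 6.09 ± 0.743 CPM in MLE12 cells (-3.46 ± 0.17). The lipoprotein receptor gene Lrp8 averaged 72.7 ± 1.603 CPM in LLC1 cells, against 14.8 ± 1.57 CPM in MLE12 cells (2.29 ± 0.06). Stard3, a carrier at contacts of late endosomes (-1.15 ± 0.07), and Stard4, a soluble sterol carrier (-0.45 ± 0.04), were lower in LLC1. Beside Soat1, the second esterifying enzyme gene Soat2 was also higher in LLC1, at 11.5 ± 0.904 CPM in LLC1 cells, against 0.426 ± 0.0768 CPM in MLE12 cells (4.73 ± 0.14). Nceh1, which hydrolyses the esters and was chosen after its values were seen, averaged 79.7 ± 2.81 CPM in LLC1 cells, against 35.5 ± 0.479 CPM in MLE12 cells (1.17 ± 0.04). Rxra, a partner receptor of the LXRs, was higher in LLC1 as well, at 57.6 ± 2.18 CPM in LLC1 cells, against 11.5 ± 0.213 CPM in MLE12 cells (2.32 ± 0.05), opposite in direction to Nr1h3. Abca7, a relative of Abca1, differed little (-0.28 ± 0.05). Cyp7b1, an oxysterol hydroxylase gene likewise chosen after its values were seen, had 2 counts over the LLC1 libraries and 564 over the MLE12 libraries.

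**Figure D5:**
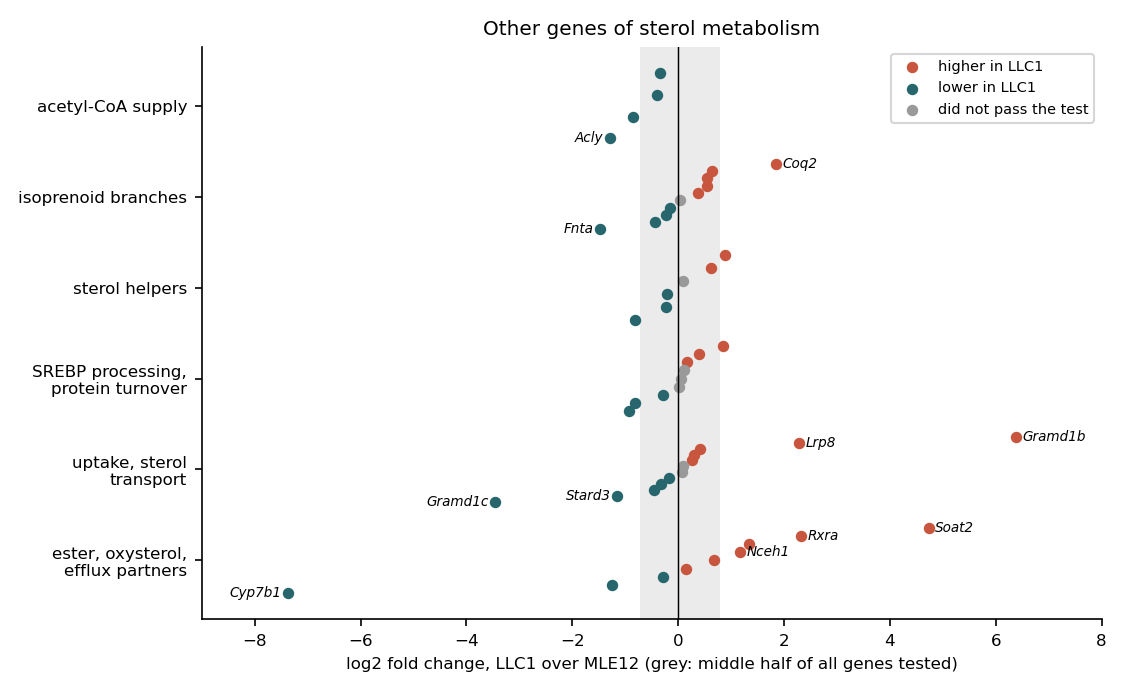
Log2 fold change of LLC1 over MLE12 for 50 other genes of sterol metabolism in 6 lists; each point is a gene, coloured by its call, and the grey band holds the middle 50% of all genes tested. Gramd1b and Soat2 lie farthest toward LLC1, and Cyp7b1 and Gramd1c farthest toward MLE12.

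Replicates lay close together for most of the 28 genes. The coefficient of variation was 1.73% to 32.2% in LLC1 and 2.37% to 90.6% in MLE12, the highest value in each line being that of Abcg1. With 4 libraries per line, any of them is the highest or the lowest for many genes by chance. The share over all genes tested was not counted, so the list that follows is a description only. MLE12 replicate 4, the shallowest library of its line, was the highest or the lowest MLE12 library in most of the 28 genes. It was highest for Hmgcs1, Idi1, Fdft1, Cyp51, Msmo1, Nsdhl, Hsd17b7, Sc5d, Insig1, Insig2, Npc1 and Soat1. It was lowest for Mvk, Sqle, Lss, Srebf2, Scap, Abca1, Nr1h2 and Nr1h3. Without it, 10 of the 28 genes were higher in LLC1 and 16 lower, and the same counts of 3 and 5 passed the test for 2-fold.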

How the data were processed

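The authors deposited raw counts per gene for 8 libraries with gene name, position on mm10 and a length. The length column, headed CodingLength in the deposited table, is in bases, and equals the exon bases of all GENCODE M21 transcripts for 12 of the 28 genes. The submitters' processing notes name CASAVA, TopHat2, featureCounts, edgeR and mm10. Versions, annotation release, counting strand and the treatment of reads with several alignments are not given in the sources used here. Poly-A RNA was, per the labels' protocols, copied with random primers and sequenced as paired reads of 100 bases, with no step named that marks the strand.

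These counts were tested in R 4.3.3 with edgeR 4.0.16: filterByExpr by line, TMM scaling, glmQLFit with robust estimation, glmQLFTest without covariates, and glmTreat against a fold change of 2. P-values were adjusted by Benjamini-Hochberg over the 18546 genes tested and called under 0.05. SEs were derived from the F statistics (log2 fold change over the root of F). The procedure was tested on simulated data. Alternatives were DESeq2 1.42.0, limma-voom (3.58.1), other scaling factors, other filters, each library left out, replicate number as a block and near-identical copies summed. Copies were matches of at least 95% identity over 100 bases between a coding sequence and another transcript of GENCODE M21 (BLAST 2.17.0); summed were those over at least 50% of it. All libraries differed beyond sampling noise (chi-square over its degrees of freedom, within a line, 6.76 to 58.4). The genes, lists and motifs were chosen with earlier results of these data known, the LXR repeat after the levels were seen. All 28 genes are named. From each other list the text names the called genes with the largest changes, up to 2 per direction, with at least 10 CPM in the higher line. One macrophage marker is not analysed here, and 1 gene of the lists is not reported here. Promoters are from RefSeq, build GRCm38.p6.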

Additional observations from a re-analysis of the deposited data

Results flagged for a closer look

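In 6 of the 56 sets of 4 libraries examined (28 genes in each of 2 lines) 1 library lay far from the other 3 by Dixon's criterion at 95%, where chance flags about 1 in 20 sets. MLE12 replicate 4 accounted for 4 of them. It was high for Hmgcs1 (119 CPM, the other MLE12 libraries 104 to 105 CPM) and Sc5d (33.4 CPM, the others 30.6 to 30.8 CPM), and low for Srebf2 (277 CPM, the others 316 to 320.0 CPM) and Scap (92.4 CPM, the others 108 to 109 CPM). In LLC1, replicate 1 was high for Cyp51 (72.4 CPM, the others 68.2 to 68.6 CPM) and replicate 3 low for Nr1h3 (1.03 CPM, the others 1.63 to 1.66 CPM).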

How the results depend on the processing

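Over all alternatives, 8 to 12 of the 28 genes were called higher in LLC1 and 14 to 17 lower, and in the settings with a test for 2-fold, which DESeq2 and limma-voom lacked, 3 genes were higher and 5 lower, except that with at least 1 CPM in 4 libraries Abcg1 was not tested and the higher count was 2. Of the single-gene values under an alternative, 423 kept direction and call, 26 lost the call, 1 gained it and 1 reversed. The reversal was Acat2 summed with Acat3, at 0.22, an alternative chosen after seeing the data; lost calls were of Pmvk, Lss, Msmo1, Sc5d and Srebf2, all of small size, and their cause was not tested. The within-library ratios without 1 library could not pass, since 3 against 4 allow no p under 0.0571; their log2 differences ran from -1.36 to -1.30 (Insig1 over Insig2), -2.61 to -2.34 (Nr1h3 over Nr1h2) and -10.93 to -9.81 (Abca1 over Abcg1). Library totals alone moved the median log2 fold change of all genes to -0.08. Libraries with the same number correlated at -0.15 to 0.15 in their deviations from the line means. The same-numbered library was the best match for replicates 2 (0.15) and 3 (0.13), but not for replicates 1 and 4. Correlations this weak cannot decide whether the numbers pair the libraries. With the replicate number as a block, 10 of the 28 genes were higher and 15 lower, and 14795 of all genes were called. Depth limits Abcg1 and, in LLC1, Abca1 and Nr1h3.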
